A study of Mus musculus with 16 samples.

Results

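The Kruppel-like factors described here are 10 genes of this family of transcription factors (Klf2, Klf3, Klf4, Klf6, Klf7, Klf9, Klf10, Klf12, Klf13 and Klf16). They were taken by gene symbol from 22440 genes listed in each RNA library, and all 10 were present in every library. The libraries came from primary cortical neurons of Swiss-Webster mouse embryos at embryonic day 16, grown in dissociated culture. One culture was titled as control and is called the etoposide control, and one received etoposide at 5 µM. A further control culture is called the NMDA control, and its partner received NMDA. Neither control title names an agent. Per the labels, most experiments used 50 µM NMDA for 10 min and then 10 min without it, and no duration is stated for etoposide. Etoposide traps type II topoisomerases on cut DNA, and NMDA opens a class of glutamate receptor. With 1 library in each of the 4 groups, differences could not be set against a spread between replicates, and none was tested.

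Kruppel-like factors bind GC-rich and CACCC sequences through zinc fingers at the C-terminal end, and their N-terminal parts decide whether a target is activated or repressed. Klf2, Klf4, Klf6 and Klf7 belong to a subgroup that recruits acetyltransferases and mainly activates. Klf9, Klf10, Klf13 and Klf16 recruit the Sin3 corepressor, and Klf3 and Klf12 recruit the corepressor CtBP. In neurons the family is known for its hold on axon growth, which Klf6 and Klf7 promote and Klf4 and Klf9 restrain.

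The promoters of 4 members are shown as examples with differing etoposide values, given below. Of the 8 members at 1 FPKM or more in either library of the etoposide pair, Klf13 had the largest difference and Klf6 the smallest. Klf7 is the nearest relative of Klf6, and Klf9 shares a subgroup with Klf13. Each run is the 250 bases before the transcription start, 5′ to 3′ on the strand of the gene. Capitals mark the letters GGGCGG (the GC box) and CACCC (the CACCC box) on either strand, both of them sequences that the family can bind. The sequences are from RefSeq (GRCm38.p6) and were located by exact match in NCBIM37, the build called mm9, at chr7:71083802-71084051 (minus strand) for Klf13, chr13:5860485-5860734 (plus) for Klf6, chr1:64167964-64168213 (minus) for Klf7 and chr19:23215466-23215715 (plus) for Klf9.
Klf13: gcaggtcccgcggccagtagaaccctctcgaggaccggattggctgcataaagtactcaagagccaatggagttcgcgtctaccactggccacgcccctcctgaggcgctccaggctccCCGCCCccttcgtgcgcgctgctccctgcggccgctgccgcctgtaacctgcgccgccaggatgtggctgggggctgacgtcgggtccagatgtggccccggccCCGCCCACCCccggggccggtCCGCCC
Klf6: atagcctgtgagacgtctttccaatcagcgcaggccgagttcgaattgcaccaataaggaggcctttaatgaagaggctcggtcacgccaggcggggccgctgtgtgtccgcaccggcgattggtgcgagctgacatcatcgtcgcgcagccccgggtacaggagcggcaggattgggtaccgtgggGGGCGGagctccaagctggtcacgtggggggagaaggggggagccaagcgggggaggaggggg
Klf7: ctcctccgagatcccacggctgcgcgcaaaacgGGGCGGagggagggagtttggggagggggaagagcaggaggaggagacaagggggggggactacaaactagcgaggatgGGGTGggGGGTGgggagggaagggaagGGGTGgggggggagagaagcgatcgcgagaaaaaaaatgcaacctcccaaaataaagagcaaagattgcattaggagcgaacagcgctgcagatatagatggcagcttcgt
Klf9: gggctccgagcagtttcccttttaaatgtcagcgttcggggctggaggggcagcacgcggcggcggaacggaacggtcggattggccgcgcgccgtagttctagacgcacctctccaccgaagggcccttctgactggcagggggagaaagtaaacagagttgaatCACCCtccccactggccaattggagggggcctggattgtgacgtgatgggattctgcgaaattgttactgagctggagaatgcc
The Klf13 promoter held 3 GC boxes and 1 CACCC box, which overlaps one of them. The Klf6 promoter held 1 GC box and no CACCC box, Klf7 held 1 and 3, and Klf9 held 0 and 1. RefSeq promoters were matched for 8 of the 10 members, all but Klf10 and Klf16, and for 7 of the 8 the start lay exactly at the 5′ end of the deposited locus (2 bases away for Klf3). A GC box was found in 6 of the 8 and in 32.7% of all 32851 promoter windows of the same length. The CACCC box was in 6 of the 8 and in 52.0% of all. The letters TGACG, which form one side of a cyclic AMP response element, were in 5 of the 8 and in 17.8% of all. The full element TGACGTCA was in 0 of the 8 (1.55% of all), and the CArG box that serum response factor binds in 0 of the 8 (1.47% of all). The letters CCAAT were in 3 of the 8 (33.8% of all), with 4 matches in Klf6, 3 in Klf9 and 2 in Klf13. The letters TATAAA were in 1 of the 8, Klf12 (12.4% of all). The GC content of the members' windows ran from 48.0% (Klf12) to 78.4% (Klf3). The median of all windows was 52.4%, and every member window but that of Klf12 lay above it. The shares of all windows are not matched for GC content, so an excess of GC-rich letters cannot be told apart from base composition. Such matches describe letters in a window and do not show binding.

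Values are in FPKM, fragments per kilobase of transcript, scaled by library size. The spacing of low values put the fragment totals near 14.2 M (etoposide control), 11.8 M (etoposide), 19.6 M (NMDA control) and 18.4 M (NMDA). The libraries lie on different scales, since the median FPKM of 9533 genes at 1 FPKM or more in all 4 was 5.65, 4.18, 17.3 and 17.7 in the same order. Levels are therefore set within a pair, and values after dividing each library by that median (median scaling) are given where they differ. The microRNA locus Mir5109 held 76.5%, 68.7%, 51.9% and 52.3% of the FPKM sum in that order. FPKM is per kilobase, so these are not shares of fragments, and their part in the scales was not tested. A fold or ratio given for a single gene is the plain ratio of its FPKM, and counts at 2-fold and log2 folds are on the log2(FPKM + 1) scale, which understates the change of low genes, unless the plain ratio is named. Of the neuronal markers, the symbol Map2 was absent from the 22440 genes, and the other 7 were at 1 FPKM or more in every library. Astrocyte markers were present in all 4 libraries, with a summed level of 81.2 and 42.7 FPKM in the etoposide pair and 644 and 607 FPKM in the NMDA pair, so the cultures held glial transcripts as well. Intervals are exact 95% intervals, made from approximate fragment numbers, and hold counting error alone.

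Among the levels, Klf6, Klf7 and Klf13 were the most abundant members in 3 of the 4 libraries, and Klf2 and Klf4 the least abundant in all. In the etoposide control the order was Klf6 (13.3 FPKM), Klf7 (12.6), Klf13 (11.4), Klf9 (6.60), Klf16 (4.34), Klf10 (4.26), Klf3 (3.06), Klf12 (2.38), Klf4 (0.339) and Klf2 (0.283). The intervals of Klf6 and Klf7 overlapped, as did those of Klf7 and Klf13, of every neighbouring pair from Klf16 down to Klf12, and of Klf4 and Klf2. Klf9 stood apart from both of its neighbours. The NMDA control gave the same order at 31.2 FPKM for Klf6, 29.2 for Klf7, 27.6 for Klf13 and 22.5 for Klf9, and 0.417 for Klf2. Klf6 lay above 80.5% of the genes at 1 FPKM or more in the etoposide control and above 77.6% in the NMDA control.

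**Figure D1:**
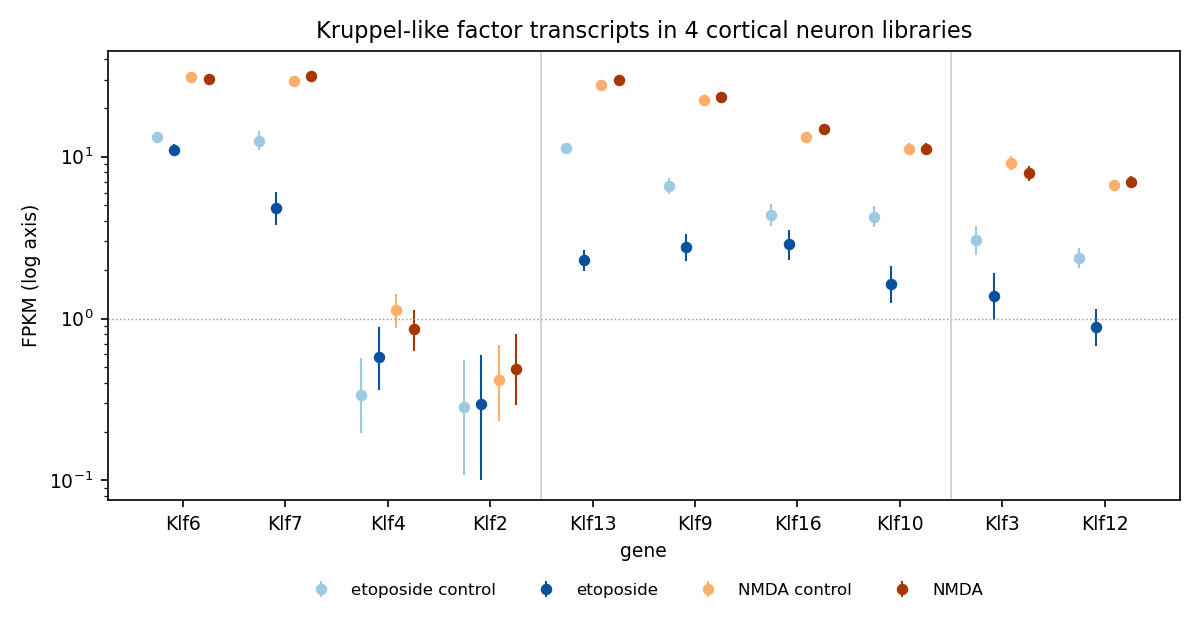
FPKM of each gene (log axis) in the 4 libraries, 1 point per library, with 95% counting intervals as bars; vertical lines separate the activator, Sin3 and CtBP subgroups and the dotted line is 1 FPKM. The etoposide points lie below their control for 8 genes, while NMDA and its control lie close together.

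The etoposide comparison addresses transcripts under trapped topoisomerase. In it 8 of the 10 members could be compared, at 1 FPKM or more in either library, and all 8 were lower in the treated library on the deposited scale. After median scaling 7 were lower and Klf6 was higher, at a ratio of 1.12 (interval 1.01 to 1.26). Of the 7, Klf16 had a scaled ratio of 0.895 with an interval that held 1 (0.683 to 1.16). Klf13 differed most, at 4.95-fold lower, and Klf6 least, at 1.20-fold lower. Of all 10681 genes compared, 76.7% were also lower. On the log2(FPKM + 1) scale 3 of the 8 members were at least 2-fold lower (Klf7, Klf9 and Klf13), against 7.36% of all genes. No member was at least 2-fold higher, against 0.477% of all. Klf10 lay next to the limit, just short of 2-fold on this scale. Klf12 was let into the comparison by its control alone, since it was under 1 FPKM with etoposide. On the plain FPKM ratio 6 of the 8 were at least 2-fold lower, against 15.9% of all. The median log2 fold of the 8 was -0.92 and that of all genes was -0.32. After median scaling 1 of the 8, Klf13, was at least 2-fold lower on the log2 scale, beside 316 of the 10681 genes, and the members' median was -0.75 against 0.01 for all. The authors' deposited table lists Klf7, Klf9, Klf10, Klf12 and Klf13, 5 of the 8 and each lower, against 6.28% of all genes compared that it lists and that were lower.

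In the activator subgroup, Klf6 and Klf7 parted with etoposide. Klf6, on chromosome 13 from 5860735 to 5869639 in mm9, was at 13.3 FPKM in the etoposide control and 11.1 with etoposide, and at 31.2 and 30.4 FPKM in the NMDA control and treated libraries. Klf7, on chromosome 1 from 64082247 to 64167963, was at 12.6, 4.83, 29.2 and 31.5 FPKM in the same order. Thus both were near each other in 3 libraries, and in the etoposide library Klf7 stood well below Klf6. The etoposide ratio was 0.831 for Klf6 (interval 0.745 to 0.929) and 0.384 for Klf7 (0.291 to 0.497). After median scaling the direction for Klf6 turned, at 1.12 (1.01 to 1.26), and Klf7 was at 0.519 (0.394 to 0.671). An exon of Klf7 overlaps Gm13748 on the opposite strand, and where counting does not use strand those reads cannot be told apart.

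The ratio of one gene to another within a library does not depend on the library's scale. Klf7 over Klf6 was 0.948 in the etoposide control and 0.437 with etoposide, which is 2.17 times lower (interval 1.63 to 2.92). In the NMDA control it was 0.937 and with NMDA 1.04, a ratio of 1.11 with an interval of 0.984 to 1.24 that holds 1.

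Klf2 and Klf4, which endothelial cells use as flow-responsive factors and which are also early-response genes, were close to the floor. Klf2, on chromosome 8 from 74842961 to 74845553, was at 0.283 FPKM (etoposide control), 0.295 (etoposide), 0.417 (NMDA control) and 0.486 (NMDA). These values stood for about 7, 6, 15 and 17 fragments, so the libraries cannot be separated. Klf4, on chromosome 4 from 55540009 to 55545347, was at 0.339, 0.578, 1.13 and 0.857 FPKM. Its etoposide ratio was 1.70 (interval 0.823 to 3.49, from about 15 and 21 fragments), and a difference was not detectable at this depth on the deposited scale. After median scaling the Klf4 ratio was 2.30 (1.11 to 4.72). Neither gene reached 1 FPKM in the etoposide pair. Endothelial markers were low as well, at a summed 3.14 and 2.0 FPKM over 10 genes in the etoposide pair and 18.1 and 17.1 FPKM in the NMDA pair, and Cdh5 and Cldn5 were listed at 0 in both libraries of the etoposide pair. Egfl7 made up most of these sums, at 2.41, 1.58, 14.4 and 13.6 FPKM in the 4 libraries, and Kdr, at 2.83 and 2.68 in the NMDA pair, was the only other endothelial marker at 1 FPKM or more in any library. Microglial markers summed to 0.484 and 0.403 FPKM over 10 genes in the etoposide pair and to 5.84 and 4.42 FPKM in the NMDA pair.

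The Sin3 subgroup held the largest and one of the smaller etoposide differences. Klf13, on chromosome 7 from 71031237 to 71083801, was at 11.4 FPKM (etoposide control), 2.30 (etoposide), 27.6 (NMDA control) and 29.9 (NMDA). The etoposide library alone was low. The ratio was 0.202 (interval 0.171 to 0.237, from about 1031 and 174 fragments), and of all genes compared 0.206% had a lower log2 fold. Klf13 ranked 3 among the members in its control and 5 with etoposide, where its interval overlapped those of Klf9 above it and Klf10 below it. After median scaling it was 3.66-fold lower, and it was the single member still past 2-fold.

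Klf9, a target of thyroid and glucocorticoid hormones that restrains neurite growth, was at 6.60, 2.78, 22.5 and 23.4 FPKM in the same order (chromosome 19, 23215716 to 23241401). It was 2.38-fold lower with etoposide (interval 1.90 to 3.0). Klf10, which transforming growth factor β induces and which acts in its feedback, was at 4.26, 1.63, 11.2 and 11.2 FPKM (chromosome 15, 38224168 to 38230462). Klf10 was 2.61-fold lower with etoposide (1.93 to 3.56), and its NMDA pair was level. Klf16 was at 4.34, 2.88, 13.2 and 14.9 FPKM (chromosome 10, 80029866 to 80040041). Its etoposide value was 1.51-fold lower (1.16 to 1.98), near the 1.34-fold of the median gene. After median scaling the Klf16 ratio was 0.895, and its interval (0.683 to 1.16) held 1.

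Inside the subgroup the ratios between genes differed in the etoposide library. The order there was Klf16, Klf9, Klf13 and Klf10, and neighbours in it were not resolved, since their intervals overlapped. The Klf10 interval (1.25 to 2.11 FPKM) lay below those of Klf16 (2.31 to 3.54) and Klf9 (2.27 to 3.35). Klf13 over Klf16 was 2.62 in the etoposide control and 0.799 with etoposide, which is 3.28 times lower (interval 2.38 to 4.47). Klf9 over Klf16 was 1.57 times lower with etoposide (1.10 to 2.24), Klf10 over Klf16 was 1.73 times lower (1.15 to 2.60), and Klf13 over Klf9 was 2.08 times lower (1.56 to 2.75). With NMDA these within-library ratios moved by 0.886 to 1.04 times, and all 4 intervals held 1.

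In the CtBP subgroup, both genes were lower with etoposide. Klf3 was at 3.06 FPKM (etoposide control), 1.38 (etoposide), 9.12 (NMDA control) and 7.89 (NMDA) (chromosome 5, 65194762 to 65221368). Klf12 was at 2.38, 0.891, 6.65 and 7.03 FPKM (chromosome 14, 100269862 to 100549015). The etoposide library was the lowest of the 4 for both. Klf3 was 2.22-fold lower with etoposide (interval 1.50 to 3.28) and Klf12 2.67-fold lower (2.0 to 3.65). Klf12 over Klf3 was 0.778 in the control and 0.646 with etoposide, and the interval of that change (0.498 to 1.36) holds 1.

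**Figure D2:**
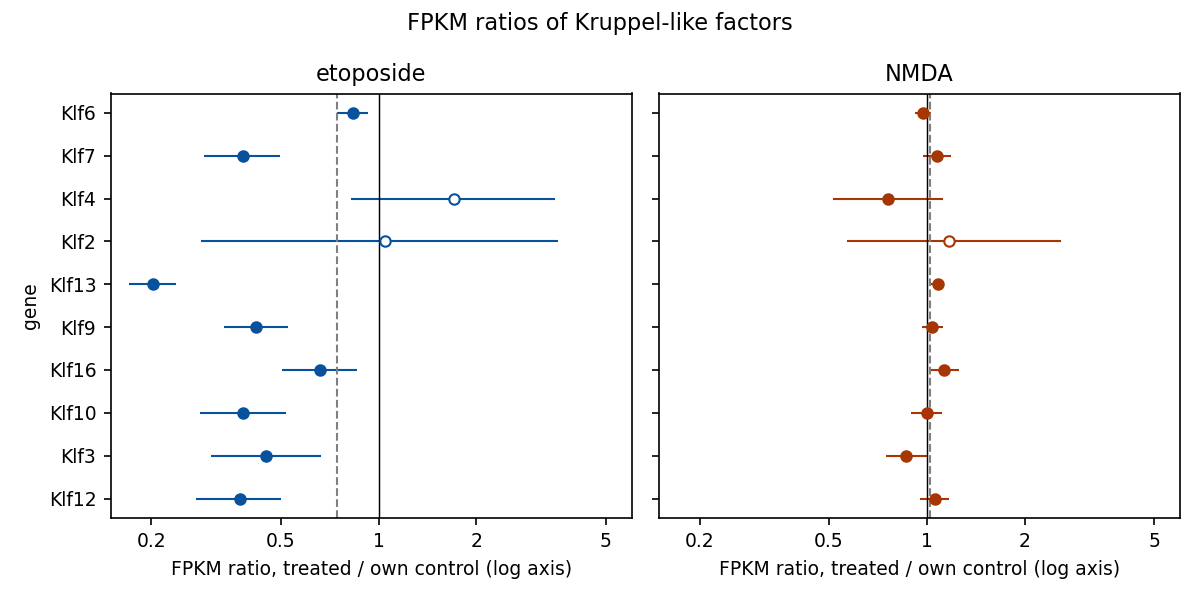
FPKM ratio of treated to own control for each gene (log axis), with 95% counting intervals; open points are genes under 1 FPKM in both libraries, the solid line is a ratio of 1 and the dashed line the median ratio of all genes compared. With etoposide the points run from 0.202 for Klf13 to 1.70 for Klf4, and with NMDA from 0.757 for Klf4 to 1.17 for Klf2.

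As shares of the summed FPKM of the 10 genes, which was 58.5 in the etoposide control and 28.6 with etoposide, Klf6 went from 22.7% to 38.6% and Klf13 from 19.4% to 8.03%. Klf7 made up 21.5% and 16.9%, Klf9 11.3% and 9.71%, and Klf16 7.42% and 10.1%. Klf6 was thus the main transcript of the group in the etoposide library, where Klf13 over Klf6 was 4.12 times lower than in the control (interval 3.38 to 5.03). This pair was picked as the largest and smallest etoposide differences, and the interval does not allow for that choice. In the NMDA pair the shares stayed close, at 20.5% and 19.3% for Klf6, 19.2% and 20.0% for Klf7 and 18.1% and 19.0% for Klf13. Klf13 over Klf6 was 1.11 times higher with NMDA, and its interval of 1.03 to 1.20 lies above 1. The untreated controls also lay near each other, and among their shares Klf9 differed most, at 11.3% and 14.8%.

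**Figure D3:**
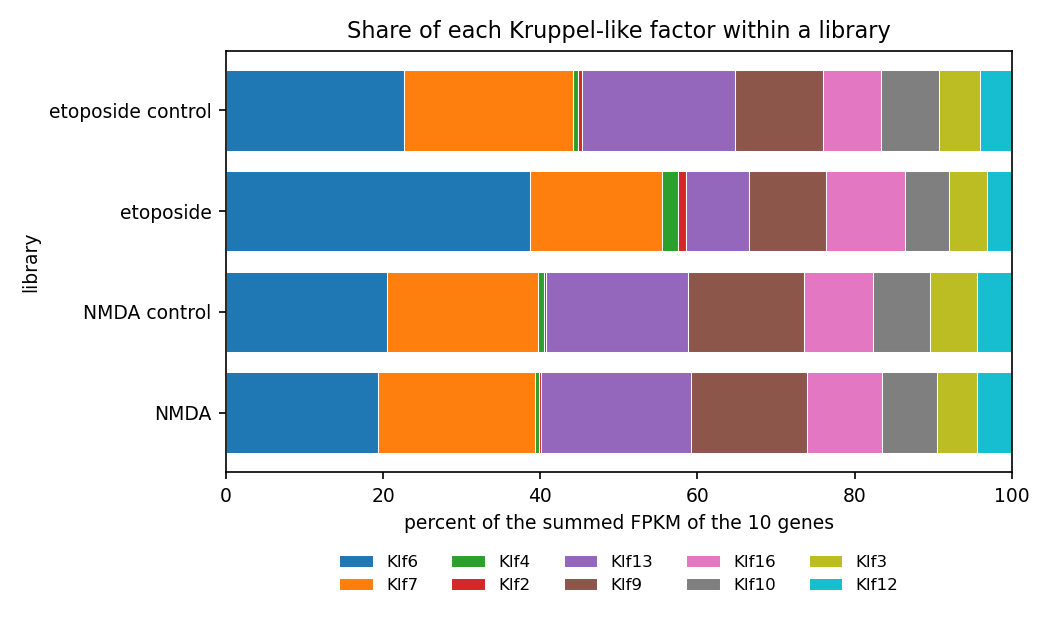
Percent of the summed FPKM of the 10 genes that each gene makes up, 1 bar per library. Klf6 widens from 22.7% to 38.6% and Klf13 narrows from 19.4% to 8.03% between the etoposide control and etoposide, while the bars of both controls and NMDA look alike.

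Longer genes had lower etoposide values across the transcriptome, and the members were read against genes of like span for that reason. The median log2 fold was -0.09 for 2528 genes under 10 kb, -0.21 for 3308 genes of 10 to 30 kb, -0.41 for 3125 genes of 30 to 100 kb and -0.71 for 1720 genes over 100 kb. Klf12, the longest member at 279 kb, had a log2 fold of -0.84, and 37.5% of the genes of its span lay lower. These placings are on the log2(FPKM + 1) scale, which understates the change of low genes such as Klf12, whose plain ratio was 0.374. No placing by span was made on the plain ratio. Klf6 (8.91 kb) and Klf16 (10.2 kb) also lay within the middle of their bins, with 37.1% and 25.7% of genes lower. By contrast Klf10 spans 6.295 kb, and its log2 fold near the 2-fold line had 2.97% of the genes under 10 kb below it. Klf9 (25.7 kb) had 3.02% and Klf7 (85.7 kb) 2.21% of their bins below them. Klf13 (52.6 kb) had 0.0960% below it, and Klf3 (26.6 kb) 7.65%. Klf10 and Klf6 are both short, and Klf10 over Klf6 was 2.17 times lower with etoposide (interval 1.57 to 3.02).

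**Figure D4:**
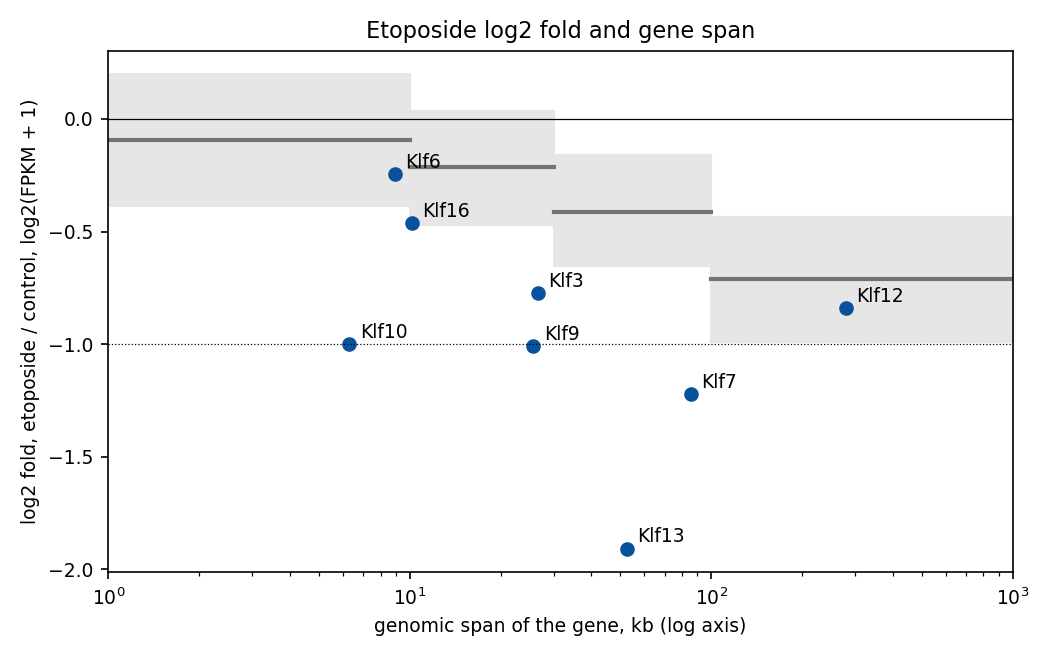
Log2 fold with etoposide on the log2(FPKM + 1) scale against genomic span in kb (log axis); points are the 8 genes compared, grey lines and bands are the median and quartiles of all genes in each span bin (the outer bins are drawn to the edge of the axis), and the dotted line is 2-fold lower. Klf6, Klf16 and Klf12 lie inside the band, and Klf3, Klf7, Klf9, Klf10 and Klf13 below it.

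Neuronal and astrocyte markers were lower with etoposide too. All 7 neuronal markers were lower, as were 76.7% of all genes compared, and 4 of them were at least 2-fold lower, against 7.36%. Their median log2 fold was -1.04, against -0.32 for all genes. All 6 astrocyte markers compared were lower, 2 at least 2-fold. Among these markers, Stmn2 (111 and 102 FPKM) and Gfap (9.59 and 8.64 FPKM) were lower by less than the median gene. Summed levels went from 569 to 335 FPKM for the neuronal markers, from 20.5 to 5.32 for 7 oligodendrocyte lineage markers and from 5.18 to 0.369 for 5 mural cell markers. Single genes carried the last 2 sums, Olig1 at 16.6 and 3.36 FPKM and Acta2 at 4.61 and 0.0944. The myelin gene Mog was under 1 FPKM and went the other way, at 0.369 and 0.696, and the other 4 mural markers stayed under 1 FPKM in both libraries. The neuron-specific tubulin Tubb3 went from 209 to 101 FPKM and the astrocyte glutamate transporter Slc1a2 from 17.7 to 6.80. The part of cell make-up in the members' values was not tested, and in bulk RNA fewer cells of a type and less RNA per cell cannot be told apart.

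In the NMDA comparison, which addresses receptor activation, the members lay near their control. Of the 9 members at 1 FPKM or more in either library, 0 were 2-fold or more higher (0.438% of all 13028 genes compared) and 0 were 2-fold or more lower (0.729%). The authors' deposited table lists 0 of the 10 members among its 63 genes for NMDA, which make up 0.192% of the genes compared on the higher side and 0.292% on the lower. The median log2 fold was 0.05 for the 9 members and 0.02 for all genes, with 5 members above 0 and 4 below. Against the other control with median scaling, the members' median was -0.23. The ratio was 1.13 for Klf16 (interval 1.01 to 1.25) and 1.08 for Klf13 (1.03 to 1.13), and these were the members whose interval lay above 1. After median scaling the Klf16 interval, 0.989 to 1.22, held 1, and that of Klf13 was 1.01 to 1.10. Klf7 (1.08), Klf12 (1.06), Klf9 (1.04), Klf10 (0.998) and Klf6 (0.973) had intervals that hold 1. Klf3 had a ratio of 0.865 (0.747 to 1.00) on the deposited scale and 0.844 (0.729 to 0.977) after median scaling, and Klf12 over Klf3 was 1.22 times higher with NMDA (1.02 to 1.46). Klf4 had a ratio of 0.757 (0.515 to 1.12, from about 67 and 48 fragments). It was let into the comparison by its control alone, at 1.13 FPKM there and 0.857 with NMDA, so its place below 0 follows in part from the filter.

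Between the untreated controls the members followed the difference in scale. The NMDA control was 3.12-fold above the etoposide control for the median gene, and the members lay between 1.47-fold (Klf2) and 3.41-fold (Klf9). After median scaling Klf6 was 1.30-fold lower in the NMDA control, Klf7 1.31-fold and Klf13 1.26-fold lower, and Klf9 1.12-fold higher. On the same scale the etoposide value was 3.66-fold lower for Klf13, 1.98-fold for Klf12, 1.93-fold for Klf7 and Klf10, 1.76-fold for Klf9 and 1.64-fold for Klf3. These 6 are larger than the difference between the controls for any member but Klf2, which was 2.08-fold lower in the NMDA control from few fragments. Klf6 (1.12-fold higher with etoposide) and Klf16 (1.12-fold lower) were smaller than the 1.30-fold by which Klf6 differed between the controls.

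Of the 7 other members of the family, 4 could be compared, and all 4 were lower with etoposide, by less than 2-fold on the log2(FPKM + 1) scale. Of all genes compared, 76.7% were lower. On the plain ratio 2 of the 4, Klf8 and Klf15, were at least 2-fold lower, against 15.9% of all genes. Both reached 1 FPKM in the control alone. Klf1, Klf14 and Klf17 stayed under 1 FPKM in every library, and Klf1 (0.0365 and 0.0785 FPKM) and Klf14 (0.0457 and 0.355) had the higher value with etoposide. Klf15, an activator tied to glucocorticoid signalling, was at 1.96 and 0.830 FPKM in the etoposide pair, and at 8.51 and 7.29 in the NMDA pair. Klf8, a CtBP partner, was at 1.92 and 0.958 FPKM with etoposide, Klf11, a Sin3 partner, at 2.86 and 1.71, and Klf5 at 2.49 and 1.85. Their median log2 fold was -0.54. The SP factors, which share the zinc finger domain, had 3 of 9 genes compared and none past 2-fold, with Sp3 at 6.95 and 4.73 FPKM, Sp1 at 1.89 and 1.48 and Sp4 at 3.89 and 3.33.

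The genes that act with the family gave mixed values with etoposide. Of all genes compared, 7.36% were at least 2-fold lower on the log2(FPKM + 1) scale and 15.9% on the plain ratio. Of 11 corepressor genes 0 were at least 2-fold lower on the log2(FPKM + 1) scale and 1, Ncor1, on the plain ratio, and their median log2 fold of -0.23 was above that of all genes. Ncor1 was at 10.2 and 4.72 FPKM, Ctbp2 was at 5.66 and 2.87 and Ctbp1 at 26.7 and 17.2. All 4 coactivator genes were lower by less than 2-fold on the log2(FPKM + 1) scale, with a median of -0.72. On the plain ratio 2 of the 4 reached 2-fold, Ep300 (3.55 and 1.73 FPKM) and Kat2b (1.49 and 0.739). Kat2b reached 1 FPKM in the control alone. Crebbp, at 6.45 and 3.42 FPKM, did not reach 2-fold. The ubiquitin ligase gene Fbxw7, whose product marks some of these factors for degradation, was at 21.0 and 9.97 FPKM, and was the 1 of 4 ligase genes that reached 2-fold on either scale, with Smurf1 at 4.92 and 2.66.

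Of 5 hormone receptor genes that lie upstream of Klf9, all were lower with etoposide, as were 76.7% of all genes compared. At least 2-fold lower were 2 on the log2(FPKM + 1) scale (7.36% of all) and 3 on the plain ratio (15.9% of all). The authors' deposited table lists 3 of the 5 as lower, against 6.28% of all genes compared. Thrb, Nr3c2 and Rxra reached 1 FPKM in the control alone, so the filter let them in through the library where they are high. Thrb, a thyroid hormone receptor, was at 3.81 and 0.767 FPKM, Nr3c2, the mineralocorticoid receptor, at 2.10 and 0.463, and Nr3c1, the glucocorticoid receptor, at 2.98 and 1.08. None of 6 glucocorticoid-responsive genes reached 2-fold in either direction on either scale, and 2 were above 0, with Per1, a clock gene, at 4.26 and 5.55 FPKM. The route from the kinase ERK5 through MEF2 factors to Klf2 and Klf4 had 6 genes compared. On the log2(FPKM + 1) scale 1 was at least 2-fold lower (Mef2c, 52.8 and 13.5 FPKM), against 7.36% of all genes. On the plain ratio 2 were, with Mef2a at 7.95 and 3.75 FPKM, against 15.9% of all. Of 4 genes compared on the transforming growth factor β route to Klf10, 0 were at least 2-fold lower on the log2(FPKM + 1) scale. On the plain ratio 2 were, Smad2 at 8.94 and 4.38 FPKM and Smad3 at 1.44 and 0.623, against 15.9% of all genes. Smad3 and Tgfbr1 reached 1 FPKM in the control alone, so the filter let them in through the library where they are high.

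Of the 4 reported targets of the family that could be compared, 3 were lower with etoposide and 1 was higher. Of all genes compared, 76.7% were lower. S1pr1, a receptor gene under Klf2, was at 5.29 and 1.71 FPKM and L1cam, an adhesion gene of growing axons, at 29.1 and 12.7. So 2 of the 4 genes compared were at least 2-fold lower, against 7.36% of all genes. Of the cell cycle inhibitor genes, Cdkn1a was at 13.2 and 12.4 FPKM, and Cdkn1b was higher with etoposide, at 8.59 and 13.7. With NMDA no gene compared in these lists reached 2-fold on either scale. Mef2c was at 116 and 135 FPKM, Thrb at 8.63 and 10.2, Sgk1 at 17.4 and 15.1 and S1pr1 at 46.5 and 49.2.

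The genes most like Klf6 and Klf13 across the 4 libraries were found by distance between their median-scaled log2(FPKM + 1) values, centred per gene, among 9533 genes. Nearest to Klf6 were Map3k7 (distance 0.01), Sh3glb1 (0.02) and Ccdc85b (0.03). Nearest to Klf13 were Slco3a1 (0.06), Odz4 (0.15) and Ajap1 (0.18). Slco3a1 was at 8.88, 1.83, 21.9 and 24.4 FPKM in the order used above, low like Klf13 in the etoposide library alone. The nearest distances were larger for Klf13 than for Klf6. Only 4 libraries set this likeness.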

How the data were processed

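The authors deposited 1 table of FPKM values per RNA library and tables of genes they listed as changed, and these values were used as deposited. For the aligner and the estimation of FPKM, the tools that could apply per the submitters' processing notes are TopHat, Bowtie and Cufflinks (version 2.0.0) with Cuffdiff, on mm9, though the notes assign no roles. The 12 chromatin samples were not analysed here. Groups followed the sample titles. Counts at 2-fold, medians and log2 folds used differences of log2(FPKM + 1), a pseudocount of 1, over all genes at FPKM of at least 1 in either library. Folds and ratios printed for single genes, with their intervals, are plain FPKM ratios. Fragment numbers were approximated from the smallest FPKM steps of 1280 single-exon genes and the GENCODE transcript nearest each locus. The fold and interval calculations were tested on counts simulated with these same FPKM steps. That could not show an error in the steps or in the transcript lengths. Whether a listed gene was higher or lower was read from the library tables. No test across groups was possible. The members and gene lists were chosen with earlier results of these data known. The gene pairs compared within a library, the span bins, the motifs and the 4 promoters shown were chosen after values were seen. All members were named, with up to 4 genes per list by size of log2 fold and the 3 nearest genes of the highest and lowest member. Python 3.11.15, pandas 2.3.3 and SciPy 1.17.1 were used.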

Additional observations from a re-analysis of the deposited data

How the results depend on the processing

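No paired analysis was possible because each group had 1 library. The number of members at least 2-fold lower with etoposide, 3 of 8 (786 of all 10681 genes), depended on the setting. It was 6 with a pseudocount of 0.1 FPKM (1551 of all genes). On the plain ratio, added after seeing the data, it was also 6 (1703 of all genes). Median scaling left 1 (316 of all genes). Against the other pair's control it was 8 of 9, beside 10972 of all 12988 genes. Against that control with median scaling it was 1 of 9, beside 1293 of all genes. The number stayed at 3 with no filter on low values (3 of 10 members, 786 of 17508 genes). With FPKM of at least 5 it was also 3 (of 4 members, beside 652 of 5508 genes). Klf13 was at least 2-fold lower under all 7 alternatives. The members' median log2 fold, -0.92, was -2.09 against the other control, on whose scale the median gene was at -1.67, and -1.32 on the plain ratio. Over all genes, 51 were at least 2-fold higher and 786 lower, and 297 and 316 with median scaling. Klf6 lay 0.08 above the median gene, and from -0.13 (no filter) to 0.57 (other control with median scaling) relative to it over the alternatives. With NMDA, 8 of 8 members were at least 2-fold higher against the other control, beside 9840 of all 12870 genes. The members' median there was 1.25, where the median gene was at 1.35. With median scaling added that median was -0.23, and -0.25 relative to all genes, so the sign of the members' median with NMDA depended on the control. The depth limits Klf2 and Klf4 most, at 6 to 67 fragments per library.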
